A study of Mus musculus with 6 samples.

Results

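Cells recognise foreign or misplaced nucleic acid through a small set of dedicated proteins, and 8 genes of this machinery were measured in 3 mouse embryonic stem cell lines. They are the cytosolic RNA helicase sensors Ddx58 (RIG-I), Ifih1 (MDA5) and Dhx58 (LGP2), their mitochondrial adaptor Mavs, the endosomal double-stranded RNA receptor Tlr3, the Z-form nucleic acid sensor Zbp1, the RNA-activated kinase Eif2ak2 (PKR) and the RNA-editing enzyme Adar. The genes were chosen by symbol, with earlier results of these data known. Each of the 8 had 1 probe set annotated to it alone, out of 19938 genes with such a probe set. The lines, ♂M-1, ♂M-3 and ZM-1, are labelled as mouse embryonic stem cells obtained by chromosome transfer, in a study of how well the parental pronuclei of the zygote can be reprogrammed, and the ♂M and ZM prefixes are not spelled out in the labels. Each line had 2 biological repeats, 1 array each, and all cultures were kept on gelatin in medium with LIF, PD0325901 (a MEK inhibitor) and CHIR99021 (which inhibits GSK3β). No genotype, strain or passage is given in the labels, and no untreated or parental control was among the 6 arrays. Each line is a single derivation and 1 ZM line was measured, so a difference between kinds of line cannot be told apart from a difference between individual lines.

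RIG-I and MDA5 bind double-stranded RNA in the cytosol, RIG-I preferring short or triphosphate-ended molecules and MDA5 long ones, and both signal through MAVS to induce type I interferon. LGP2 lacks the signalling domains and tunes the other helicases. Interferon in turn raises transcription of most of these genes, which makes the sensors part of the response they start. Mouse embryonic stem cells are known for a weak interferon response to viral RNA compared with differentiated cells.

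All values are intensities on a linear scale as deposited, with errors given as the SD over 2 repeats. The array medians over all probe sets lay between 67.2 and 71.3 and the lower quartiles between 23.8 and 25.1, and the root mean square difference between repeats was 0.14 to 0.16 log2 units over all genes. The number of arrays limits the precision, and no detection calls were used here. All 10 pluripotency markers lay above the lower quartile in every line, and Pou5f1, Sox2 and Nanog averaged between 2906 and 4086. Of the 10, 1 was called higher in ♂M-1 and 5 in ♂M-3 relative to ZM-1, where 1.89% and 8.66% of all genes were called higher. Differences are in log2 of the intensity plus 1, from limma with Benjamini-Hochberg adjustment over the 19938 genes, and a gene was called at an adjusted p of at most 0.05. In RNA from whole cultures, fewer cells that express a gene and less RNA per cell cannot be told apart.

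The promoter windows of 6 of the genes are printed here, and those of 4 carry the same short element. The windows of Mavs and Tlr3 hold no exact match to it and are shown beside those 4. No window was at hand for Dhx58 and Zbp1, which were called lower in both ♂M lines. The matches can therefore not be set against the calls of all 8 genes. Windows were read for 6 of the 8 genes, not for Dhx58 and Zbp1, from RefSeq on build GRCm38.p6, and run from 250 bases before an annotated start to 50 after it, written 5′ to 3′ on the strand of the gene. Capitals mark the core of the interferon response element, GAAANNGAA on either strand, where N is any base.
Ddx58 (chr4:40239776-40240075, minus strand): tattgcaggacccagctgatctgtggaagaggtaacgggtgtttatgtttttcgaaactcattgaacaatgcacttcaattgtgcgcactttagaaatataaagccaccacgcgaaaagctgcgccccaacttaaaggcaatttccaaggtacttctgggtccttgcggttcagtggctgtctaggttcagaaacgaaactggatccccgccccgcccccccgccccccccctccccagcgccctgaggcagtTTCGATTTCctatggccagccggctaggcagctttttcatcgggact
Ifih1 (chr2:62646206-62646505, minus strand): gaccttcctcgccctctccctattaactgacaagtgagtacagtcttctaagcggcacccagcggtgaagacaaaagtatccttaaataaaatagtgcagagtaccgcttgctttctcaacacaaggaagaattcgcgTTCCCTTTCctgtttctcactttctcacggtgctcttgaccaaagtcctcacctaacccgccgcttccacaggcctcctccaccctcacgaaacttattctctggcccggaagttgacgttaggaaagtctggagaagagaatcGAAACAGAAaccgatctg
Eif2ak2 (chr17:78882523-78882822, minus strand): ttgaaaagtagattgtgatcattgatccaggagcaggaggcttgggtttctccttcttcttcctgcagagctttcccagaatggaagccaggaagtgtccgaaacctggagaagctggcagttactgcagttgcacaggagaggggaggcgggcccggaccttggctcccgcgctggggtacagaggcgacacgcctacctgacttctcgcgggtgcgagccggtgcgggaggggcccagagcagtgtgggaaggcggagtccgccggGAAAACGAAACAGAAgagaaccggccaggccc
Adar (chr3:89730468-89730767, plus strand): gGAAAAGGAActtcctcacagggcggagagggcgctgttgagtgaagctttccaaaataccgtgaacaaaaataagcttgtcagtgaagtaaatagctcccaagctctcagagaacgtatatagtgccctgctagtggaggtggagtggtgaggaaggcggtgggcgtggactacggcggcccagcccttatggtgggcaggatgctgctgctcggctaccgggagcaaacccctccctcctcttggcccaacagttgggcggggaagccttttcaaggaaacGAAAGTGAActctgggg
Mavs (chr2:131233813-131234112, plus strand): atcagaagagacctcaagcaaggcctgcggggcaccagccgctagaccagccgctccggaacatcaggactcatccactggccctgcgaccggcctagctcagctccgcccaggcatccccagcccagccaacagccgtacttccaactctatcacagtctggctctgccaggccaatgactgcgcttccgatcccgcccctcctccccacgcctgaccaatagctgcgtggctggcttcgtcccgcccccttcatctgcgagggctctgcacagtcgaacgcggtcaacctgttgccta
Tlr3 (chr8:45410331-45410630, minus strand): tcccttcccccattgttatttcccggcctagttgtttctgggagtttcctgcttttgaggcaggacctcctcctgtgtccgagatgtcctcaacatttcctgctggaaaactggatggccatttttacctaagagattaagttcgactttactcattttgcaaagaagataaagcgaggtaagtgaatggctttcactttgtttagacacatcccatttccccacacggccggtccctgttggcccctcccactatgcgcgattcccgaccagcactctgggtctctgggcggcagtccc

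The core was found in 4 of the 6 genes, namely Ddx58, Ifih1, Eif2ak2 and Adar, and not in the windows of Mavs and Tlr3. Only exact matches were counted, so near matches are neither marked nor excluded. It occurred in 8.56% of all 32851 windows and in 9.20% of the 15563 tested genes with a window. Positions are counted with the start base as the first. In Eif2ak2 the 2 matches overlap each other and begin at positions 19 and 25, and in Ifih1 the match nearest the start begins at position 33. Adar has 3 annotated windows, of which the third, printed above, holds the core from position 34 and again at its far upstream end. The first and second windows of Adar hold 0 cores. The STAT site TTCNNNGAA, which reads the same on both strands, occurred in 8.30% of all windows and in 2 of the 6 genes, Eif2ak2 and the third window of Adar, without overlapping the core. These matches describe the letters in the windows and do not show binding. Whether the element bears on the levels was not tested.

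Levels of 7 of the 8 genes were highest in ZM-1, and that of Mavs was highest in ♂M-3. Against ZM-1, 6 of 8 genes were called lower in ♂M-1 and 0 higher, where 2.53% of all genes were called lower and 1.89% higher. In ♂M-3, 7 of 8 were called lower than in ZM-1 and 0 higher, where 7.2% of all genes were called lower and 8.66% higher. The median log2 difference of the 8 genes was −0.52 for ♂M-1 minus ZM-1 and −0.85 for ♂M-3 minus ZM-1, against medians over all genes of −0.01 and 0.00. Both comparisons use the same ZM-1 arrays. Both ♂M-1 arrays lay below both ZM-1 arrays in 6 of the 8 genes and above them in 0, where 25.9% of all genes lay below and 23.0% above. For ♂M-3, 7 of the 8 lay below ZM-1 and 1, Mavs, above, where 27.4% of all genes lay below and 30.1% above. Leaving out ♂M-1 replicate 1 or ZM-1 replicate 1 reduced the called genes from ♂M-1 against ZM-1 to 2 in each case, and those 2 were Zbp1 and Eif2ak2.

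**Figure D1:**
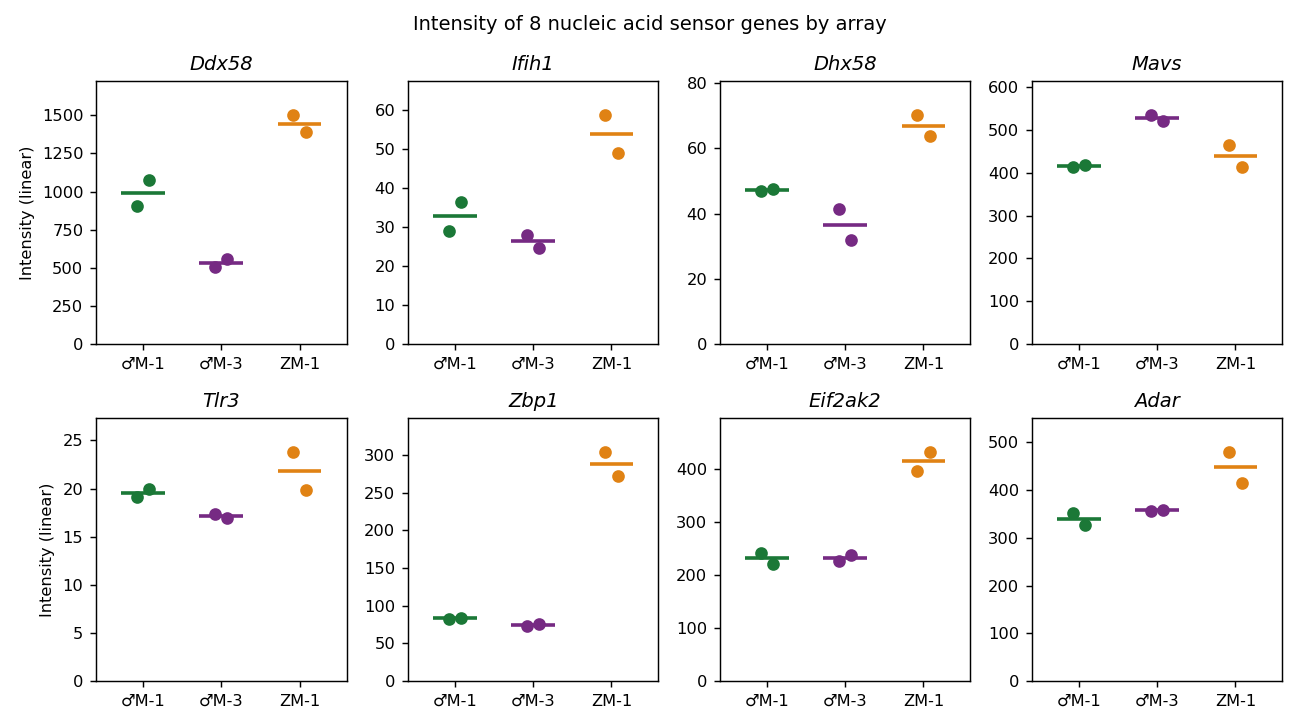
Intensity on a linear axis starting at 0 for the 8 sensor genes, with 1 point per array and a bar at the mean of each line. Zbp1 and Eif2ak2 lie low in all 4 ♂M arrays, Ddx58 separates all 3 lines, and Mavs is highest in ♂M-3.

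Zbp1 had the largest difference of the 8 genes. ZBP1 binds nucleic acid in the left-handed Z form and can trigger necroptosis through the kinase RIPK3. It read 82.7 and 84.1 in ♂M-1, 72.9 and 75.8 in ♂M-3, against 304 and 272 in ZM-1. All 4 ♂M arrays lay far below both ZM-1 arrays, and the ♂M lines did not overlap with ZM-1. Zbp1 was 3.42-fold lower in ♂M-1 relative to ZM-1 (log2 difference −1.77, 95% interval −1.96 to −1.59, adjusted p = 8.83e-06). In ♂M-3 it was 3.83-fold lower (−1.94, −2.12 to −1.75, adjusted p = 2.51e-06). Between the ♂M lines the difference was 0.16 (−0.02 to 0.35, adjusted p = 0.318), so a gap of up to 0.35 log2 units between them lies within the interval.

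Eif2ak2 encodes PKR, which on binding double-stranded RNA phosphorylates the initiation factor eIF2α and stops translation. Its intensities were 242 and 221 in ♂M-1, 227 and 239 in ♂M-3, against 397 and 433 in ZM-1. The 4 ♂M arrays were interleaved, and each was well below the lower ZM-1 array. The gene was 1.79-fold lower in ♂M-1 (log2 difference −0.84, 95% interval −1.03 to −0.65, adjusted p = 9.81e-04) and 1.78-fold lower in ♂M-3 (−0.83, −1.02 to −0.64, adjusted p = 3.64e-04) than in ZM-1. The 2 ♂M lines differed by −0.01, with an interval of −0.20 to 0.18 (adjusted p = 0.979). For Zbp1 and Eif2ak2, both calls against ZM-1 were made under every one of the 17 alternative settings, some of which repeat the same fit.

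Ddx58 was the gene in which all 3 pairs of lines passed the test. RIG-I is the helicase that detects viral RNA ends. Its probe set read 907 and 1073 in ♂M-1, 503 and 559.7 in ♂M-3, against 1499 and 1388 in ZM-1. No arrays of different lines overlapped, with ♂M-3 lowest, ♂M-1 between and ZM-1 highest. It was 2.71-fold lower in ♂M-3 than in ZM-1 (log2 difference −1.44, 95% interval −1.67 to −1.21, adjusted p = 5.13e-05) and 1.46-fold lower in ♂M-1 relative to ZM-1 (−0.55, −0.78 to −0.32, adjusted p = 0.0199). Between the ♂M lines it was 1.86-fold higher in ♂M-1 (0.89, 0.66 to 1.12, adjusted p = 0.00142). The ♂M-1 call against ZM-1 was lost when ♂M-1 replicate 1 (adjusted p = 0.120) or that of ZM-1 (0.0726) was left out, while the other 2 calls were made whichever array was left out.

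Ifih1, which encodes MDA5, showed the same order of lines at a dim probe set. It read 29.0 and 36.5 in ♂M-1, 28 and 24.6 in ♂M-3, against 58.6 and 49.0 in ZM-1. Both ZM-1 arrays were above all ♂M arrays, whose lowest values came close to the lower quartile of the arrays. Ifih1 was 1.63-fold lower in ♂M-1 (log2 difference −0.70, 95% interval −0.99 to −0.42, adjusted p = 0.0180) and 2.0-fold lower in ♂M-3 (−1.0, −1.29 to −0.71, adjusted p = 0.00124) than in ZM-1. The difference between the ♂M lines was 0.30 (0.01 to 0.59, adjusted p = 0.236). The ♂M-1 call did not pass with ♂M-1 replicate 1 left out (adjusted p = 0.114) or with ZM-1 replicate 1 left out (0.0671).

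Dhx58, the LGP2 gene, read 47.0 and 47.6 in ♂M-1, 41.3 and 32.0 in ♂M-3, against 70.1 and 63.7 in ZM-1. The 3 lines did not overlap, although the ♂M-3 repeats lay further apart than those of ♂M-1. It was 1.82-fold lower in ♂M-3 than in ZM-1 (log2 difference −0.86, 95% interval −1.12 to −0.60, adjusted p = 0.00163). In ♂M-1 it was 1.4-fold lower (−0.49, −0.75 to −0.23, adjusted p = 0.0493), at the edge of the threshold. That call was lost without either ♂M-1 array (adjusted p = 0.199 and 0.206) or either ZM-1 array (0.146 and 0.0757), and also after median centring (0.0601) or quantile normalization (0.0692). Between the ♂M lines the difference was 0.37 (0.11 to 0.63, adjusted p = 0.105), called only without ♂M-3 replicate 1 (adjusted p = 0.0378).

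Adar edits adenosine to inosine in double-stranded RNA, which keeps the cell's own transcripts from activating MDA5 and PKR. It has a long interferon-inducible isoform and a shorter constitutive one, which the single probe set used here was not checked to separate. It read 352 and 328 in ♂M-1, 356 and 359 in ♂M-3, against 479.9 and 415 in ZM-1. The ♂M arrays were all below the lower ZM-1 array, and the ZM-1 repeats were the most spread. Adar was 1.31-fold lower in ♂M-1 (log2 difference −0.39, 95% interval −0.60 to −0.19, adjusted p = 0.0436) and 1.25-fold lower in ♂M-3 (−0.32, −0.52 to −0.12, adjusted p = 0.0421) than in ZM-1. Between the ♂M lines it differed by −0.07 (−0.28 to 0.13, adjusted p = 0.737). Both calls were lost when any 1 of the 6 arrays except ZM-1 replicate 2 was left out, with adjusted p between 0.0763 and 0.229 for ♂M-1 and between 0.0613 and 0.174 for ♂M-3. Median centring also ended both (adjusted p = 0.0568 and 0.0558), and the replicate block ended that of ♂M-1 (0.0507).

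Mavs, the adaptor on the mitochondrial outer membrane through which RIG-I and MDA5 signal, had another order of lines. Its intensities were 412 and 417 in ♂M-1, 534 and 521 in ♂M-3, against 465 and 413 in ZM-1. The ♂M-3 arrays were above every other array, and those of ♂M-1 and ZM-1 overlapped. Mavs was 1.27-fold lower in ♂M-1 than in ♂M-3 (log2 difference −0.35, 95% interval −0.53 to −0.16, adjusted p = 0.0397). This call was lost without any 1 of the 4 ♂M arrays (adjusted p between 0.151 and 0.200), with the replicate block (0.0559) and after quantile normalization (0.0505). The difference of ♂M-3 from ZM-1 was 0.27 (0.08 to 0.45, adjusted p = 0.0577), and 0.35 without ZM-1 replicate 1. Mavs was called higher in ♂M-3 than in ZM-1 under 6 of 17 alternative settings. Among them were pseudocount 16 (adjusted p = 0.0305), median centring (0.0363), the filters on low values (0.0386 and 0.0191) and the intensity trend (0.0169). For ♂M-1 minus ZM-1 the difference was −0.08 (−0.26 to 0.11, adjusted p = 0.653).

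Tlr3, which detects double-stranded RNA inside endosomes, was dim in all lines. It read 19.1 and 20.0 in ♂M-1, 17.4 and 16.9 in ♂M-3, against 23.8 and 19.9 in ZM-1, all below the lower quartile of the same array, so no fold is given. The ♂M-3 arrays were the lowest, and ♂M-1 and ZM-1 overlapped. It was called lower in ♂M-3 than in ZM-1 (adjusted p = 0.0459) and not in ♂M-1 (adjusted p = 0.436). The call was lost when any 1 array other than ZM-1 replicate 2 was left out (adjusted p between 0.0721 and 0.192), and after median centring (0.0569), quantile normalization (0.0880) or the replicate block (0.0581).

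**Figure D2:**
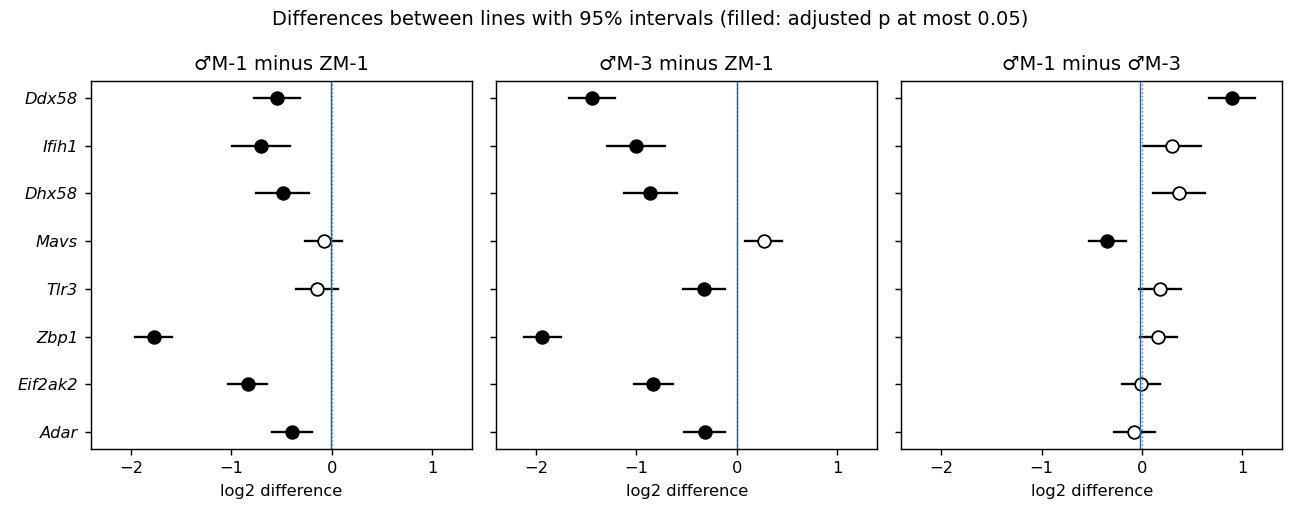
Log2 differences of the 8 genes for the 3 pairs of lines, with 95% intervals. Filled points were called at an adjusted p of at most 0.05, the dotted line marks 0 and the blue line the median of all genes. Zbp1 lies at −1.77 and −1.94 against ZM-1, and Ddx58 at 0.89 between the ♂M lines.

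Between ♂M-1 and ♂M-3, 1 of 8 genes, Ddx58, was called higher in ♂M-1 and 1, Mavs, lower. Over all genes, 3.22% were called higher and 3.32% lower in this comparison. Arrays of ♂M-1 lay wholly above those of ♂M-3 in 5 of the 8 genes and below in 2, where 21.6% of all genes lay above and 28.9% below. The median over the 8 genes was 0.17, against −0.02 over all genes. Both steps between neighbouring lines passed the test for Ddx58 alone. For Ifih1, Dhx58, Zbp1, Eif2ak2 and Adar, the difference of ZM-1 from the next line passed the test and that between the ♂M lines did not. Among these 5, the ♂M arrays still did not overlap in Ifih1, Dhx58, Zbp1 and Adar, and the 95% intervals of Ifih1 and Dhx58 lay above 0. For Tlr3 and Mavs neither neighbouring step passed the test.

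The genes around the sensors were examined in 8 lists, of which 101 genes were measured beside the sensors. Of these, 17 were called lower and 0 higher in ♂M-1 relative to ZM-1, where 2.53% of all genes were called lower and 1.89% higher. In ♂M-3, 20 were called lower and 4 higher than in ZM-1, where 7.2% of all genes were called lower and 8.66% higher. The 4 higher were thus a smaller share than over all genes. The 4 became 1 without ♂M-3 replicate 1, ♂M-3 replicate 2 or ZM-1 replicate 2, and 9 after median centring, while 18 to 20 were lower in these settings. The list of interferons and their early targets held more calls than any of the other lists in both comparisons. Of its 17 measured genes, 12 were lower in ♂M-1 and 11 in ♂M-3, 0 were higher in either, and the list medians were −0.69 and −0.86. The lists were chosen with earlier results of these data known, so this ranking is not independent of them. Ifnb1, the interferon gene that sensor signalling induces first, was dim everywhere, at 14.3 ± 0.689 in ♂M-1, 13.5 ± 0.911 in ♂M-3, against 15.2 ± 1.19 in ZM-1 (adjusted p = 0.673 and 0.261 against ZM-1). Oas2, which makes the oligoadenylate messenger that activates RNase L, averaged 73.4 ± 1.3 in ♂M-1, 72.3 ± 2.28 in ♂M-3, against 296 ± 17.1 in ZM-1 (adjusted p = 4.26e-06 and 1.49e-06). Oasl2, an oligoadenylate synthetase-like protein, differed most, 8.55-fold lower in ♂M-1 and 13.3-fold lower in ♂M-3. The chemokine Ccl5 was 2.63-fold and 3.46-fold lower in ♂M-1 and ♂M-3. Oasl1 was 2.72-fold lower in ♂M-1 and also lay lower in ♂M-3, at 151 and 143 against 370 and 304 in ZM-1. Ifit1, which binds viral RNA caps, averaged 25.2 ± 4.67 in ♂M-1, 15.1 ± 0.986 in ♂M-3, against 60.1 ± 8.40 in ZM-1. Between the ♂M lines, Ifit1 and Oasl2 were called higher in ♂M-1 (adjusted p = 0.0168 and 0.00514), and Stat2, a subunit of the interferon-activated transcription factor, lower (1.46-fold, adjusted p = 0.00529). Leaving out ♂M-1 replicate 2 ended each of these 3 calls (adjusted p = 0.138, 0.0554 and 0.0596), as did leaving out either ♂M-3 array for Ifit1 (0.113 and 0.0649) and ♂M-3 replicate 2 for Stat2 (0.0512).

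In the list of RIG-I-like receptor signalling and control, 2 of 20 genes were called lower in ♂M-1, with 0 higher, and 2 lower and 2 higher in ♂M-3. The ♂M-3 counts were near the shares over all genes, 7.2% lower and 8.66% higher, and 2.53% of all genes were called lower in ♂M-1. Irf7, the factor that amplifies interferon production, was 2.80-fold lower in ♂M-1 and 3.59-fold lower in ♂M-3 than in ZM-1. The helicase Ddx60, an interferon-induced cofactor, averaged 15.1 ± 0.218 in ♂M-1, 15.0 ± 1.25 in ♂M-3, against 60.3 ± 6.38 in ZM-1 (adjusted p = 1.38e-05 and 7.20e-06). Zcchc3, an RNA-binding co-receptor of RIG-I and MDA5, was 1.54-fold higher in ♂M-3 than in ZM-1 (adjusted p = 0.00280). Rnf125, a ubiquitin ligase that marks RIG-I for degradation, was 1.3-fold higher in ♂M-3 than in ZM-1 and 1.32-fold lower in ♂M-1 than in ♂M-3. The first of these calls was lost without either ♂M-3 array or ZM-1 replicate 2 (adjusted p between 0.0545 and 0.0886), and the second without any 1 of the 4 ♂M arrays (0.0551 to 0.128). The downstream kinase Tbk1 and the transcription factor Irf3 were not called in any pair, with adjusted p of 0.882 and 0.446 in ♂M-1 and 0.406 and 0.0780 in ♂M-3 against ZM-1. Of the 10 other RNA-binding helicases, such as Dhx9 and Ddx3x, 0 were called in any pair by limma, with 2 and 3 at an unadjusted p under 0.05 for ♂M-1 and ♂M-3 against ZM-1. Of 10 genes of RNA editing and double-stranded RNA binding beside Adar, such as Adarb1 and Dicer1, 0 were called by limma, with 5 and 3 at an unadjusted p under 0.05 in the same order and 0 between the ♂M lines.

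**Figure D3:**
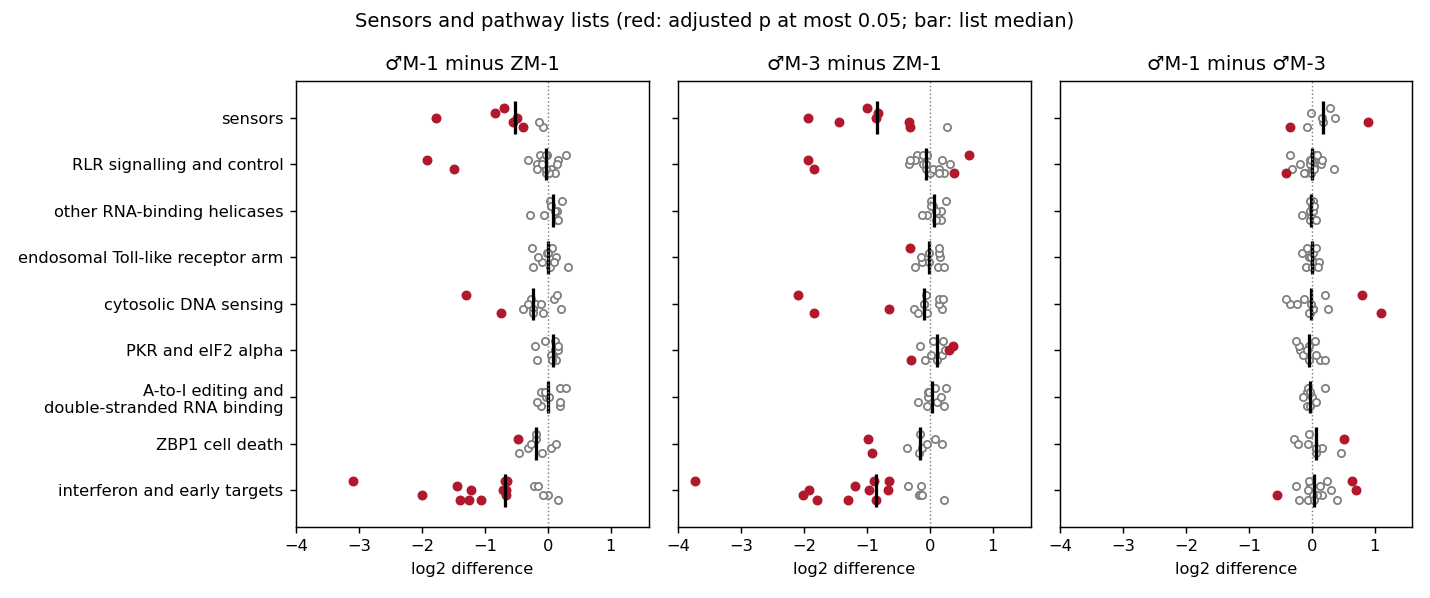
Log2 differences of the sensors and of each gene in 8 pathway lists for the 3 pairs of lines, with 1 point per gene, red where called, and a bar at the list median. Called genes of the interferon list reach −3.73 in ♂M-3 minus ZM-1, and the helicase and editing lists hold no red point.

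The list of cytosolic DNA sensing holds nucleases and the adaptor Sting1 beside the sensors. Of its 13 measured genes, 2 were lower in ♂M-1 and 3 in ♂M-3, with 0 higher, where 2.53% and 7.2% of all genes were called lower. Ifi205, a DNA-binding protein of the PYHIN family, averaged 43.9 ± 8.03 in ♂M-1, 19.9 ± 0.632 in ♂M-3, against 73.4 ± 3.15 in ZM-1, and was also called higher in ♂M-1 than in ♂M-3 (adjusted p = 9.66e-04). Ifi203, of the same family, averaged 33.7 ± 7.06 in ♂M-1, 19.2 ± 5.79 in ♂M-3, against 83.4 ± 0.252 in ZM-1. Its ♂M-1 call against ZM-1 depended on ♂M-1 replicate 2 (adjusted p = 0.0724 when left out). It was higher in ♂M-1 than in ♂M-3 as well (adjusted p = 0.0374), not so without either ♂M-1 array or ♂M-3 replicate 1 (0.0764 to 0.207). Sting1, the adaptor of cGAS, was 1.57-fold lower in ♂M-3 than in ZM-1 (adjusted p = 0.00419) and differed by −0.40 in ♂M-1 (adjusted p = 0.0735). Cgas itself was dim and not called, at 20.3 ± 2.31 in ♂M-1, 26.0 ± 0.0741 in ♂M-3, against 23.3 ± 1.06 in ZM-1.

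Of the 9 measured genes of ZBP1-dependent cell death, 1 was lower in ♂M-1 and 2 in ♂M-3, and 0 were higher, where 2.53% and 7.2% of all genes were called lower. Ripk3, the kinase that ZBP1 engages, averaged 396 ± 2.17 in ♂M-1, 278 ± 32.8 in ♂M-3, against 549.8 ± 9.73 in ZM-1. It was 1.98-fold lower in ♂M-3 (adjusted p = 2.11e-04) and 1.39-fold lower in ♂M-1 (adjusted p = 0.0231) than in ZM-1, the ♂M-1 call being lost without either ♂M-1 array or either ZM-1 array (0.0578 to 0.144). Mlkl, which perforates the membrane in necroptosis, was 1.89-fold lower in ♂M-3 (adjusted p = 0.00465). Among 11 genes of the PKR and eIF2α list, 0 were called in ♂M-1 by limma (1 at an unadjusted p under 0.05), and 1 was lower and 2 higher in ♂M-3. The 1 lower was near the share over all genes in ♂M-3, 7.2%, and 8.66% of all genes were called higher in that line. Dnajc3, a chaperone that inhibits PKR, was 1.23-fold lower there, while the eIF2α kinase Eif2ak3 and the phosphatase subunit Ppp1r15b were 1.24-fold and 1.3-fold higher. Each of these 3 calls was lost without either ♂M-3 array (adjusted p between 0.0538 and 0.165). In the endosomal Toll-like receptor list, 1 of 11 genes, the trafficking chaperone Unc93b1, was lower in ♂M-3 (1.25-fold, adjusted p = 0.0220). That count was near the 7.2% of all genes called lower in ♂M-3, and the call was lost without any 1 of the ♂M-3 or ZM-1 arrays.

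Some markers of other cells were lower in the ♂M lines, as some sensors were, and others were not. Of 10 macrophage and blood markers, 3 were called lower in ♂M-1 and 5 in ♂M-3 than in ZM-1, and 0 higher, where 2.53% and 7.2% of all genes were called lower. Their summed intensity was 694 to 722 in ♂M-1, 719 to 729 in ♂M-3 and 774 to 834 in ZM-1, and 0 of their values were at 0. Cd68, the brightest and so the largest part of the sum, averaged 364 ± 24.6 in ♂M-1, 380 ± 1.88 in ♂M-3, against 352 ± 19.5 in ZM-1. It was not called. The log2 difference from ZM-1 was positive for 2 of the 10 markers in ♂M-1 and for 3 in ♂M-3. Fcer1g, a signalling subunit of Fc receptors, averaged 42.0 ± 2.10 in ♂M-1, 38.3 ± 0.572 in ♂M-3, against 74.8 ± 3.62 in ZM-1. Ptprc and Csf1r, which define blood cells and macrophages, were dim in every line, between 28.7 and 36.1 on average, and both were among the 5 called lower in ♂M-3 (adjusted p = 0.0372 and 0.0476). These 2 calls were fragile: leaving out any 1 array ended that of Csf1r (adjusted p between 0.0563 and 0.204), and any 1 except ZM-1 replicate 1 ended that of Ptprc (0.0605 to 0.191), as did median centring for both (0.0634 and 0.053). The macrophage marker Adgre1 and the adaptor Tyrobp were called lower in both ♂M lines. The ♂M-1 calls did not hold without ♂M-1 replicate 1 (adjusted p = 0.074 and 0.188), nor did that of Tyrobp without ♂M-1 replicate 2 (0.123) or ZM-1 replicate 1 (0.108), or in ♂M-3 without ♂M-3 replicate 2 (0.0624). Of 10 fibroblast markers, 2 were lower in ♂M-1 and 9 in ♂M-3 than in ZM-1, against the same shares over all genes. Of the same 10, 7 were higher in ♂M-1 than in ♂M-3, where 3.22% of all genes were called higher. Their summed intensity was 8126 to 8719 in ♂M-1, 7160 to 7709 in ♂M-3 and 8393 to 8519 in ZM-1, and 0 values were at 0. Fn1, the brightest and so the largest part of the sum, averaged 5379 ± 179 in ♂M-1, 5494 ± 316 in ♂M-3, against 5125 ± 39.5 in ZM-1. It was not called. In ♂M-1 the log2 difference from ZM-1 was negative for 5 of the 10 markers and positive for 5. Dcn, a matrix proteoglycan, averaged 214 ± 32.6 in ♂M-1, 104 ± 11.3 in ♂M-3, against 571 ± 35.3 in ZM-1. Twist2, a mesenchymal transcription factor, averaged 163 ± 6.74 in ♂M-1, 96.1 ± 2.90 in ♂M-3, against 216 ± 6.76 in ZM-1. The part of these cells in the sensor levels was not tested.

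For each sensor, the 3 genes with the most like profile were taken as those with the smallest root mean square difference in centred log2 intensity over the 6 arrays, among 9987 genes. The 6 arrays are 3 lines in duplicate, so likeness rests mainly on 3 levels. Nearest to Zbp1 were Tnn (0.08 log2 units), Oas2 (0.09) and the complement receptor gene C3ar1 (0.11). For Ddx58, the nearest were Pla2g7 (0.10), Cd80 (0.11) and Serpinf1 (0.13), with Serpinf1 at 567 and 559.8 in ♂M-1, 271 and 289 in ♂M-3, against 694 and 689 in ZM-1. By their selection, these profiles share with Ddx58 an intermediate level in ♂M-1 and a low level in ♂M-3. Ifih1 was nearest to Trim14 (0.09), Dtx3l (0.10) and Plekhh2 (0.10), and Dhx58 to Nkx2-9 (0.07), Nfatc2 (0.08) and the immunoproteasome subunit Psmb9 (0.09). Eif2ak2 was nearest to Aldh1l2, Myh8 and Stambpl1 (0.08 each), and Adar to Rffl, Lmo7 (0.03 each) and Morf4l2 (0.04). Mavs was nearest to Phf20, Cxadr and Fbxo31 at 0.02 each, and Tlr3 to Ccdc136, Tmem88 and Nlrx1 at 0.03 each. Flat profiles give small differences, so these distances compare candidates for 1 sensor and not sensors with each other.

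**Figure D4:**
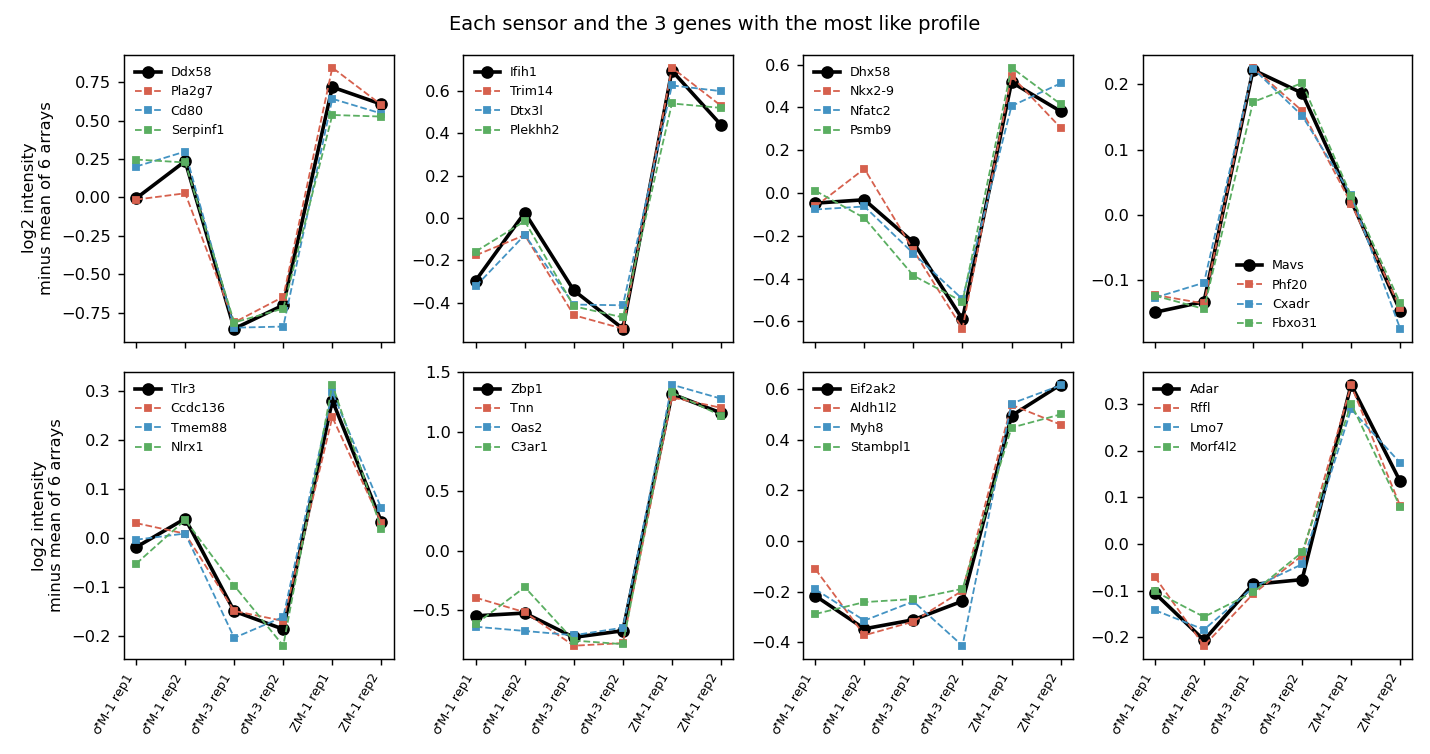
Centred log2 intensity over the 6 arrays for each sensor (black) and its 3 nearest genes (coloured), with a vertical scale of its own in each panel. The neighbours were chosen for their likeness and so follow their sensor by selection. Ddx58 and its neighbours dip in ♂M-3, Zbp1 and its neighbours are low in both ♂M lines, and Mavs and its neighbours peak in ♂M-3.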

How the data were processed

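Total RNA of 6 cultures, 2 biological repeats of each of 3 lines, was labelled with biotin for whole-transcript arrays, per the labels' protocols. The authors deposited intensity values on a linear scale, 1 value for each array and probe set; GCOS 1.4 is named in the submitters' processing notes, and background correction, summarisation and scaling were not given in the sources. Of 35556 probe sets, 21789 had 1 symbol in the platform annotation, 1621 several and 12146 none there. Each of 19938 genes was represented by its brightest probe set, by the mean of the 6 arrays, and no further normalization or filter was applied. A model with 1 mean per line was fitted across all genes to log2(intensity + 1) with limma 3.58.1 in R 4.3.3 (3 residual and 6.01 prior degrees of freedom), two-sided, with Benjamini-Hochberg adjustment and a threshold of 0.05. It was tested on simulated data. Of 144 list symbols, 131 were matched. The p-values measure the spread between repeats of a line only.

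Genes named beside the sensors were up to 4 called members of each pathway list and up to 3 of each marker list per pair. The 3 nearest profiles per sensor came from genes whose brightest line exceeded the median gene. Genes singled out after their values were seen were Ifnb1, Tbk1, Irf3, Cgas, Ptprc, Csf1r, Cd68 and Fn1, and Dhx9, Ddx3x, Adarb1 and Dicer1 as examples. Genes whose lower line lay below the lower quartile of the arrays are given without a fold. The members and lists were chosen with earlier results of these data known. Alternatives were other pseudocounts (0 and 16), median centring, quantile normalization, filters on low values, all probe sets, probe set means, an intensity trend, the replicate number as a block, fits on 4 arrays, and each array left out. For each pair, leaving out either array of the third line gave the same fit as the 4 arrays of that pair. Totals of recomputed differences count these settings separately. Promoter windows came from RefSeq (GRCm38.p6).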

Additional observations from a re-analysis of the deposited data

How the results depend on the processing

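Of 396 recomputed differences of the 8 sensors, 335 kept their direction and their side of the threshold, 50 were no longer called, 7 became called and 4 turned sign. In the main fit, 2 sensors were uncalled in ♂M-1 against ZM-1, 1 in ♂M-3 against ZM-1 and 6 in ♂M-1 against ♂M-3. Where these stayed uncalled with the same sign they are among the 335, so that number does not measure how stable the calls were. The sign turned for Mavs in ♂M-1 minus ZM-1 without ZM-1 replicate 1 (range over left-out arrays −0.163 to 0.00592), and for Eif2ak2 in ♂M-1 minus ♂M-3 after quantile normalization (0.0240) and without ♂M-1 or ♂M-3 replicate 2 (range −0.0726 to 0.0577), all uncalled. Both calls of Zbp1 and Eif2ak2 and those of Ddx58, Ifih1 and Dhx58 in ♂M-3 against ZM-1 were made under every alternative that tested them. The call of Ddx58 in ♂M-1 against ♂M-3 was also made under every alternative. The sensors called in ♂M-1 against ZM-1 numbered 2 to 5 when 1 array was left out (6 with all), those in ♂M-3 against ZM-1 5 to 7 (7), and those in ♂M-1 against ♂M-3 1 to 2 (2). For pathway genes these ranges were 13 to 19 (17), 19 to 25 (24) and 1 to 10 (7). With all probe sets in the fit, the sensors called fell to 2 in ♂M-1 against ZM-1 and 1 in ♂M-1 against ♂M-3, and the pathway genes to 11 and 1; the cause was not tested. Quantile normalization left 1 sensor called in ♂M-1 against ♂M-3. With an intensity trend, 11 pathway genes were called there.

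The replicate numbers did not pair the samples: deviations correlated at 0.07 for ♂M-1 and ZM-1, −0.10 for ♂M-3 and ZM-1 and −0.03 for ♂M-1 and ♂M-3. With the replicate block, 5 sensors were called in ♂M-1 against ZM-1, 6 in ♂M-3 against ZM-1 and 1 in ♂M-1 against ♂M-3. Over all genes, 42.7% of those called in ♂M-1 against ZM-1 were higher in ♂M-1, and 56.5% after median centring. The genes called in all were 880 in ♂M-1 against ZM-1 (275 with all probe sets, 1632 with the trend, 1 array left out 234 to 631), 3162 in ♂M-3 against ZM-1 (2027 with all probe sets, 1302 to 2750) and 1303 in ♂M-1 against ♂M-3 (442 with all probe sets, 357 to 1495). A line left with 1 array was assumed to vary like the others. Over the calls of pathway and marker genes named by rule and those of Ptprc and Csf1r, added after seeing the data, 906 recomputed differences held 793 calls, with 113 lost and 0 turned in sign. The higher calls among pathway genes in ♂M-3 against ZM-1 (4, against 20 lower) were 10 with pseudocount 16, 9 after median centring, 8 and 13 (against 18 and 13 lower) with the filters on low values, 13 with the trend and 1 with all probe sets. The filters on low values left Tlr3 out, and the stricter one also Ifih1 and Dhx58. Tlr3 and Ifih1 were dim, and background levels were not used here.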
